A study of Arabidopsis thaliana with 60 samples.

Results

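A set of 10 genes of pectin turnover was followed in Arabidopsis thaliana leaves after conditional expression of MLACC, the N-terminal coiled coil of MLA, an immune receptor from barley that recognises powdery mildew, carried as a fusion to monomeric yellow fluorescent protein (mYFP). They are 10 of the 32678 genes in each count table and were chosen by locus: the pectate lyase genes AT1G67750, AT5G48900, AT3G07010, AT4G24780 and PMR6, the pectin methylesterase genes PME3, PME5 and PME17, and the polygalacturonase inhibitor genes PGIP1 and PGIP2. The choice was made with the response of wild type to MLACC known, so the values of that comparison, and of everything that shares its libraries, are given as a description without a p. The libraries of the ppsdes mutant are separate, and p-values are given there. Earlier results of the mutant were also known when the genes were chosen, and which values were used is not stated, so these p-values may not be free of that choice.

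The homogalacturonan of pectin is laid down in the wall with methyl esters on its acid groups. Pectin methylesterases remove these esters, which lets the chains be bridged by calcium or be cut. Pectate lyases and polygalacturonases cut the de-esterified chain, the lyases by elimination and the polygalacturonases by hydrolysis. Pathogens secrete such enzymes to enter the leaf, and the fragments they release, the oligogalacturonides, are sensed by the plant as a sign of damage. PGIPs are leucine-rich repeat proteins of the wall that bind and inhibit fungal polygalacturonases.

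Plants were 4 weeks old and their leaves were infiltrated by syringe with 1 µM dexamethasone, which induces the transgene, and sampled at 0, 2, 4, 6 or 8 h. The 4 lines were MLACC in Col-0 wild type, a Col-0 line with inducible mYFP alone as its control (the mYFP line), MLACC in the sextuple mutant ppsdes, and ppsdes without a transgene as its control (the ppsdes control). The mutant combines the alleles dde2-2, ein2-1 and sid2-2, which affect jasmonate, ethylene and salicylic acid, with pad4-1 and sag101-2 in a pair of immune regulators and pen2-1 in a glucosinolate hydrolase. Each of the 20 groups of line and time held 3 libraries, 60 in all, and each library came from leaf discs of 6 plants. All 4 lines received dexamethasone. Each construct was studied in 1 homozygous line of a transformation of its own background, so that a difference between MLACC lines of the 2 backgrounds holds both the mutations and the insertions. The study also reports less MLACC protein in the mutant than in wild type. The part of this in the differences between backgrounds was not tested. The 2 controls are unlike, since only the wild-type one carries mYFP. The transgene itself was not analysed here.

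The sequences that follow are the 250 bases before the annotated transcript start of 5 of the genes, shown because these genes had the largest differences with MLACC in wild type or, for PGIP1 and PGIP2, because they are neighbouring copies with unlike values. They are read 5′ to 3′ on the gene's strand from RefSeq TAIR10.1. Capitals mark the letters TTGAC or GTCAA (the W-box core bound by WRKY factors, on either strand), CGCG (1 form of the core bound by CAMTA factors, its own reverse complement) and CACGTG (the G-box, its own reverse complement). The study gives the CAMTA core as CGyG, where y is C or T. Its other form, CGTG, was neither marked nor counted, so the CGCG matches do not cover all CAMTA cores. The PME17 window is chr2:18646607-18646856 on the minus strand, the PGIP1 window chr5:2132100-2132349 and the PGIP2 window chr5:2133668-2133917 on the plus strand, the AT1G67750 window chr1:25401264-25401513 on the plus strand and the PME5 window chr5:19272893-19273142 on the minus strand. The windows of PGIP1 and PGIP2 lie partly within the antisense gene AT5G06865.
PME17: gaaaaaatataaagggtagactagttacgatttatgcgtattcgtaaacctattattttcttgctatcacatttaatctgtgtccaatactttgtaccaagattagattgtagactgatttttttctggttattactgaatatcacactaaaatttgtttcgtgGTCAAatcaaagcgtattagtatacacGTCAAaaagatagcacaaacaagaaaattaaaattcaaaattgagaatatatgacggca
PGIP1: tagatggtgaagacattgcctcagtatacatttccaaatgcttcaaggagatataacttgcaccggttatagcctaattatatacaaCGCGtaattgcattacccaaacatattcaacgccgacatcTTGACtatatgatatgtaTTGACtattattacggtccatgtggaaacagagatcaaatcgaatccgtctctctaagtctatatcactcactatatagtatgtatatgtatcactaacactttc
PGIP2: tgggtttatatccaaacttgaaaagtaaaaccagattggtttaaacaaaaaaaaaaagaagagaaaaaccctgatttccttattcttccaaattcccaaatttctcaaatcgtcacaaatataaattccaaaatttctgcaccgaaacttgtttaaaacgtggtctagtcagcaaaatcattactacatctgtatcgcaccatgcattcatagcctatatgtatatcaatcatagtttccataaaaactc
AT1G67750: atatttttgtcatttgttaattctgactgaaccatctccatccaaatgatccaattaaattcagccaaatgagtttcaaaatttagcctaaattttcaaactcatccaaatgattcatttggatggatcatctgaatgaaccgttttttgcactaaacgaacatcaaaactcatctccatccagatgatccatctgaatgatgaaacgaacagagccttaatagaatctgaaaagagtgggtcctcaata
PME5: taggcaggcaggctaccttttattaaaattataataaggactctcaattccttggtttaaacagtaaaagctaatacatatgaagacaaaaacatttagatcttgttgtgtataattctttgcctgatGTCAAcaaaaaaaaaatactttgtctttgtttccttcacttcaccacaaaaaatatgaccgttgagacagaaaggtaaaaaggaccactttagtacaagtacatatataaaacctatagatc
PME17 held GTCAA at -86 to -82 and at -59 to -55, counted back from the transcript start. PGIP1 held TTGAC at -123 to -119 and at -105 to -101 and CGCG at -163 to -160. PME5 held GTCAA once, at -122 to -118. PGIP2 and AT1G67750 held none of the capitalised motifs. Over all 10 genes, TTGAC stood in 5 windows, those of AT4G24780, PME3, PME5, PME17 and PGIP1, against 45% of the 26711 windows of this length in the annotation. CGCG stood in 1 against 10.1% of windows, and CACGTG in 0 against 6.58%. Of the motifs not capitalised, GCCGCC (the GCC box of ERF factors, 1.85% of windows) and CGTGCG (the brassinosteroid response element, 1.58%) stood in 0. TGACG (the core of TGA factors, 18.6%), whose reverse complement CGTCA can share letters with GTCAA, stood in the windows of PME17 and PGIP2. TGTCTC (the auxin response element, 10.9%) stood in those of AT5G48900 and PME5, and TATAAA (47.7%) in 6. These are matches of letters and not sites shown to be bound.

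Library depth, as reads counted in genes, was 18.2 to 25.8 M for wild type (median 21.9 M) and 14.1 to 25.9 M for ppsdes (median 22.9 M). Levels are given as CPM, counts per M of the scaled library total, and differences as log2 fold changes (log2FC) with their standard error (SE) from the edgeR fit. A gene was called at an adjusted p (FDR) below 0.01 and an absolute log2FC above 1. All 10 genes passed the filter on low counts in the fits of 30 libraries per background and of all 60. PME17 passed only through libraries with MLACC, since no control library held more than 5 counts of it. In some smaller fits PME17 did not pass the filter and was not tested. Mesophyll markers were abundant in every library and root markers were at or near 0, with summed levels of 5786 to 69370 CPM for 5 mesophyll genes and of 0 to 0.382 CPM for 2 root genes. At 8 h the mesophyll sum was 5786 to 16220 CPM in wild type with MLACC, against 33530 to 38100 CPM in the mYFP line, and 28040 to 38260 CPM in ppsdes with MLACC, against 40850 to 48630 CPM in its control. By edgeR 5 of these 5 genes were called lower at 8 h in wild type (median log2FC -2.01) and 0 in ppsdes (-0.49, 3 at an unadjusted p under 0.05). Of 5 epidermis genes 2 were called lower in ppsdes and 3 in wild type, and their sum at 8 h was 187 to 273 CPM in ppsdes with MLACC, against 338 to 454 CPM in its control, and 63.0 to 183 CPM in wild type with MLACC, against 372 to 396 CPM in the mYFP line. Of 4 guard cell genes 2 were called lower in ppsdes at 8 h, and their sum there was 29.5 to 41.9 CPM with MLACC, against 77.5 to 85.9 CPM in the control (20.9 to 38.7 against 76.3 to 82.1 CPM at 6 h). In wild type the guard cell sum overlapped at 8 h (65.7 to 71.6 CPM with MLACC against 61.3 to 68.7 CPM), with 2 genes called lower and 1 higher. The sum of 4 vasculature genes overlapped at 8 h in both backgrounds. It was 313 to 361 CPM with MLACC against 309 to 350 CPM in wild type, and 265 to 302 against 238 to 318 CPM in ppsdes. The sum of 2 trichome genes never passed 1.53 CPM and was lower with MLACC at 8 h in both (0.0483 to 0.276 against 0.729 to 0.974 CPM in wild type, 0.456 to 0.769 against 0.865 to 1.32 CPM in ppsdes). The 10 most abundant genes took 5.31% to 5.93% of reads at 8 h where wild type expressed MLACC, against 10% to 10.8% in the mYFP line. The part of these shifts in the results below was not tested. In whole leaf discs fewer cells of a type and less RNA per cell cannot be told apart. The study also reports that cell death became detectable after induction of MLACC, within the span of times sampled here. The part of this cell death in the results below was not tested either. Over all genes, 5 of the 60 libraries were nearest to the mean of another time point: replicate 3 of the mYFP line (2 h), replicates 1 (4 h) and 3 (8 h) of the wild-type MLACC line, and at 6 h the replicate 1 library of each ppsdes line. SID2 reached at most 1.13 CPM in ppsdes and was never under 11 CPM in wild type. DDE2 was apart too (3.63 to 43.5 CPM in ppsdes), while PEN2, PAD4, SAG101 and EIN2 overlapped between the backgrounds.

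With MLACC in wild type, transcripts of the 5 pectate lyases and of PME3 and PME5 were lower than in the mYFP line, while PME17, PGIP1 and PGIP2 were higher. None of the 10 genes was called at 0 h, when 0.00509% of the 19654 genes tested were called, or at 2 h, when 4.26% were. DESeq2 also called 0 at both times, and 0 and 1 of the 10 had an unadjusted p under 0.05. At 4 h 8 of 10 were called, 6 lower and 2 higher, against 39.0% of all genes (17.6% lower and 21.4% higher). At 6 h 6 were called, 3 lower and 3 higher, against 29.3% (10.5% lower and 18.8% higher). At 8 h all 10 were called, 7 lower and 3 higher, against 45.8% (22.6% lower and 23.1% higher). The genes were chosen for this comparison, so nothing is read from these counts. At 8 h the median log2FC was -2.48 over the 5 pectate lyases, -1.53 over the 3 methylesterases and 3.50 over the 2 PGIPs, beside 0.0162 over all genes tested.

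In ppsdes fewer of the 10 genes were called at each time from 4 h on. At 0 h 0 were called, as were 0.0104% of the 19216 genes tested (0 of 10 at an unadjusted p under 0.05, and 0 called by DESeq2). Even then the groups of 2 of the 10 genes did not overlap, with AT5G48900 higher and AT3G07010 lower with MLACC. How many of all genes had groups that did not overlap was not counted, so such separation is only described below. At 2 h 1 gene, AT1G67750, rose, against 0.396% of all genes. At 4 h 0 were called by edgeR, against 2.22% of all genes, although the unadjusted p of 5 was under 0.05 and 1 was called by DESeq2. At 6 h 5 were called. AT5G48900, AT3G07010 and AT4G24780 were lower than in the control and PME17 and PGIP1 higher. This stood against 14.6% of all genes (4.13% lower and 10.5% higher). These are differences from the control at the same time, which itself changed, and not changes from 0 h. At 8 h 4 were called, the same 3 lyases lower and PGIP1 higher, against 12.4% (3.44% lower and 9.00% higher). The median log2FC at 8 h was -1.37 over the lyases, -0.53 over the methylesterases and 1.24 over the PGIPs, beside -0.0681 over all genes. When only the 6 libraries compared were fitted, 0 genes were called at 2 h and at 6 h, with PME17 not tested at either time.

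**Figure D1:**
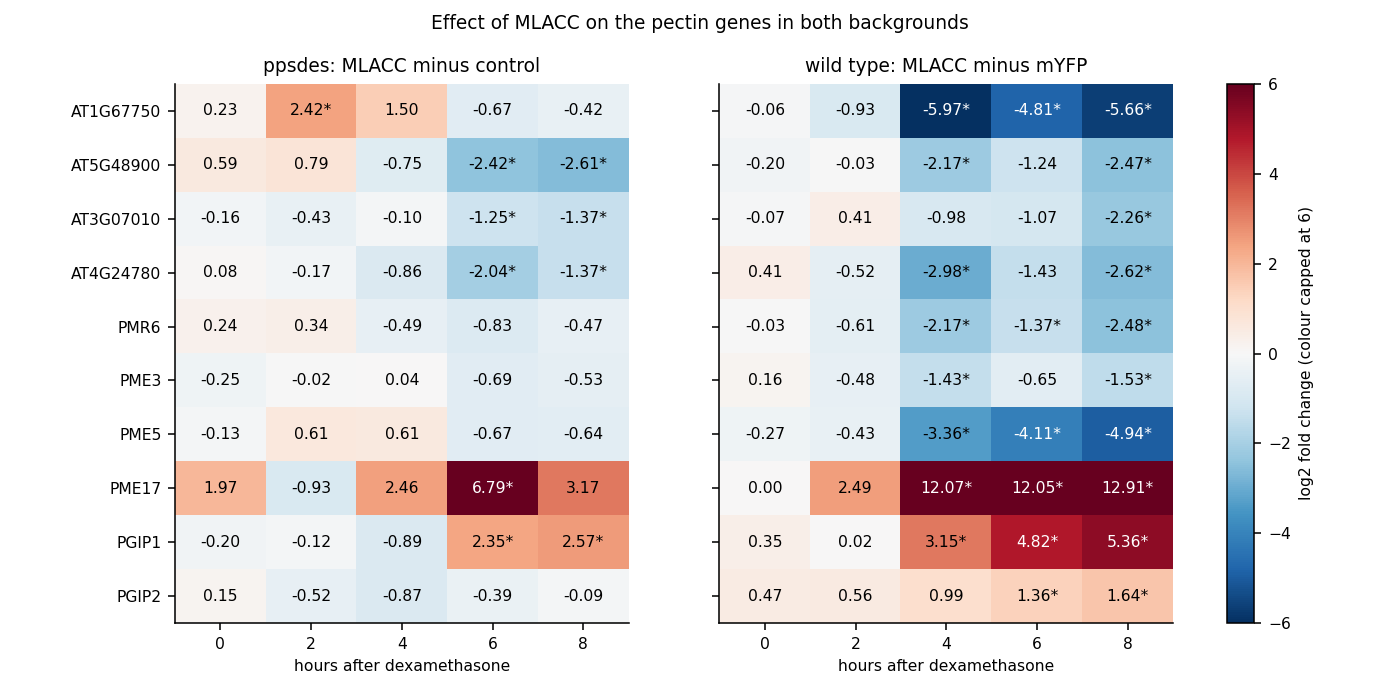
Fitted log2 fold changes of the 10 genes between MLACC and its control at 0 to 8 h, in ppsdes (left) and wild type (right), with an asterisk where the gene was called (FDR below 0.01 and absolute log2FC above 1). In wild type 7 genes are blue and 3 red at 8 h, while in ppsdes only AT5G48900, AT3G07010, AT4G24780 and PGIP1 carry an asterisk at that time. The fitted values of PME17, whose control libraries are at or near 0 counts, depend on the prior count and are no bound.

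The pectate lyase gene AT1G67750 (chr1:25401514-25403595, plus strand, 4 exons) showed the largest difference among the lyases in wild type and the opposite sign early in ppsdes. In wild type with MLACC at 4 h its levels were 1.23, 0.388 and 0.0468 CPM, against 36.3, 37.5 and 35.5 CPM in the mYFP line. At 8 h they were 1.20, 0 and 3.18 CPM with MLACC and 61.0, 93.6 and 67.3 CPM in the mYFP line. The groups were far apart at both times, and before induction they had overlapped at 5.27, 2.86 and 3.34 CPM with MLACC against 2.87, 5.61 and 3.41 CPM. The log2FC was -5.97 ± 0.82 (SE) at 4 h, -4.81 ± 0.72 at 6 h and -5.66 ± 0.76 at 8 h. The level in the mYFP line was higher at each later time, with a mean of 3.96 CPM at 0 h, 12.98 at 2 h, 36.4 at 4 h, 64.0 at 6 h and 74.0 CPM at 8 h. In wild type with MLACC the means at these times were 3.82, 6.50, 0.554, 2.25 and 1.46 CPM.

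In ppsdes with MLACC AT1G67750 stood at 12.9, 14.1 and 12.3 CPM at 2 h, against 3.46, 1.84 and 2.02 CPM in the ppsdes control, and it rose by a log2FC of 2.42 ± 0.42 (adjusted p = 0.00274). All 3 libraries with MLACC lay above all 3 controls. The call was lost without replicate 2 or 3 of the control (adjusted p = 0.0370 and 0.0298) or replicate 2 with MLACC (0.0113). It was also lost when only the 6 libraries were fitted (0.129) and when the difference at 0 h was subtracted (0.351). The log2FC was between 2.19 and 2.76 over the alternatives tried. At 4 h the libraries spread over 19.8, 15.7 and 5.50 CPM with MLACC, against 5.70, 5.92 and 3.02 CPM, and the log2FC of 1.5 ± 0.40 did not pass (adjusted p = 0.0226). Without replicate 3 with MLACC it was 1.87 and passed (adjusted p = 0.00635). At 8 h the levels were 16.6, 7.69 and 8.25 CPM with MLACC and 18.6, 11.4 and 12.6 CPM in the control, a log2FC of -0.42 ± 0.39 (adjusted p = 0.407). The ppsdes control had a mean of 14.2 CPM at 8 h, where the mYFP line had 74.0 CPM.

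AT5G48900 and AT3G07010 are close relatives, with coding sequences that were identical at 82% of aligned positions. They shared 2 windows of 36 bases, counted at every start position, so that these may overlap. Reads that lie within a shared stretch cannot be placed. AT5G48900 (chr5:19825078-19829140, plus strand, 6 exons) stood at 1.31, 0.242 and 7.83 CPM in wild type with MLACC at 8 h, against 17.8, 15.8 and 17.7 CPM in the mYFP line, and at 5.26, 2.04 and 5.51 CPM in ppsdes with MLACC, against 26.6, 23.1 and 27.4 CPM in its control. In both backgrounds every library with MLACC lay below every control, and replicate 3 of wild type with MLACC was the highest of its group. The log2FC was -2.47 ± 0.57 in wild type. In ppsdes the gene was lower than in the control by 2.61 ± 0.43 at 8 h (adjusted p = 9.98e-05) and by 2.42 ± 0.42 at 6 h (adjusted p = 0.00012). The call at 8 h held under all 12 alternatives tried. In wild type the gene was already lower at 4 h (5.81, 2.61 and 2.34 CPM with MLACC against 17.0, 17.2 and 15.8 CPM, log2FC -2.17 ± 0.57), while in ppsdes it stood at 15.9, 21.6 and 15.1 CPM with MLACC at that time, against 33.8, 26.6 and 28.5 CPM (-0.75 ± 0.40, adjusted p = 0.280). The wild-type call at 4 h was lost without replicate 2 or 3 with MLACC (log2FC -1.99 and -1.94) and when the difference at 0 h was subtracted. That at 8 h was lost under this subtraction and when only the 6 libraries were fitted. At 6 h in ppsdes replicate 1 with MLACC, one of the libraries nearest another time, stood at 13.9 CPM and the other two at 2.89 and 2.90 CPM.

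AT3G07010 (chr3:2212289-2216483, minus strand, 8 exons) was the lyase with the latest call in wild type. Its levels at 8 h were 8.73, 3.38 and 21.7 CPM in wild type with MLACC, against 43.6, 46.6 and 71.6 CPM in the mYFP line, and 17.2, 17.3 and 32.7 CPM in ppsdes with MLACC, against 35.9, 63.2 and 71.0 CPM in the ppsdes control. No library with MLACC reached its control group. In ppsdes the groups were already apart in this direction at 0 h, at 13.3, 15.7 and 15.9 CPM with MLACC against 16.4, 16.0 and 18.7 CPM. The log2FC was -2.26 ± 0.41 in wild type, and in ppsdes the gene fell by 1.37 ± 0.36 (adjusted p = 0.00488). At 6 h it fell by 1.25 ± 0.36 in ppsdes (adjusted p = 0.00787). Both ppsdes calls sat close to the threshold: each was lost when only the 6 libraries were fitted and when the difference at 0 h was subtracted. The call at 8 h was also lost without replicate 2 or 3 of the control or replicate 1 or 2 with MLACC, and that at 6 h without replicate 2 or 3 of either line. The gene AT3G07005 shares 454 bases with it on the other strand but was at or below 0.0483 CPM in all 60 libraries.

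AT4G24780 (chr4:12770221-12772479, minus strand, 6 exons) had the highest mean level per length of these 4 lyases at 8 h in each of the 4 lines. In wild type at 4 h replicate 1 with MLACC stood at 28.4 CPM while replicates 2 and 3 stood at 1.83 and 1.54 CPM, against 90.5, 75.0 and 93.0 CPM in the mYFP line. Replicate 1 is one of the libraries nearest another time, and all 3 lay below the controls (log2FC -2.98 ± 0.74). Without the 5 libraries nearest another time the log2FC was -5.69, and the call was lost when only the 6 libraries were fitted. At 8 h the levels were 18.9, 3.57 and 29.9 CPM with MLACC and 107, 101 and 113 CPM in the mYFP line (-2.62 ± 0.72). This call was lost without replicate 1 or 2 with MLACC, when only the 6 libraries were fitted and when the difference at 0 h was subtracted. In ppsdes at 6 h the levels were 62.2, 19.6 and 28.4 CPM with MLACC and 141, 156 and 162 CPM in the control. The gene was lower than in the control by 2.04 ± 0.29 (adjusted p = 1.7e-05). At 8 h the levels were 39.5, 28.8 and 48.4 CPM with MLACC and 94.2, 88.9 and 113 CPM in the control. The gene was lower there by 1.37 ± 0.29 (adjusted p = 0.000821). The means of ppsdes with MLACC were 21.1 CPM at 0 h, 36.7 at 6 h and 38.9 CPM at 8 h. Those of the control were 20.4, 153 and 98.7 CPM. The groups did not overlap at 6 or 8 h, and both calls held without each library in turn. That at 6 h was lost when only the 6 libraries were fitted (adjusted p = 0.0126) and that at 8 h when the difference at 0 h was subtracted (adjusted p = 0.0181).

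PMR6 (AT3G54920, chr3:20344785-20348659, plus strand, 4 exons) encodes a pectate lyase-like protein whose loss gives resistance to powdery mildew. It stood at 12.7, 5.60 and 3.28 CPM in wild type with MLACC at 4 h, against 39.0, 31.3 and 30.3 CPM in the mYFP line, and at 8.66, 3.04 and 16.4 CPM at 8 h, against 48.2, 51.7 and 57.0 CPM. The log2FC was -2.17 ± 0.42 and -2.48 ± 0.42, and at 6 h it was -1.37 ± 0.40. The call at 6 h was lost without any 1 of the 6 libraries and when the difference at 0 h was subtracted. In ppsdes the levels at 6 h were 37.8, 23.4 and 29.2 CPM with MLACC, against 50.2, 58.8 and 53.4 CPM in the control, and at 8 h 36.4, 36.6 and 47.9 CPM, against 49.999, 55.5 and 58.9 CPM. These groups did not overlap either, but the log2FC of -0.83 ± 0.22 at 6 h (adjusted p = 0.00382) missed the fold change threshold and that of -0.47 ± 0.21 at 8 h (adjusted p = 0.0825) missed both. The gene overlaps AT3G54910 on the other strand by 810 bases. That gene was at 0.0936 to 13.9 CPM and was itself called lower in wild type at 4, 6 and 8 h (-2.96, -1.81 and -2.30), and since the kit does not mark strand, reads of the shared stretch cannot be told apart. AT3G08445, on the same strand, overlaps the other end of PMR6 and was not analysed here.

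**Figure D2:**
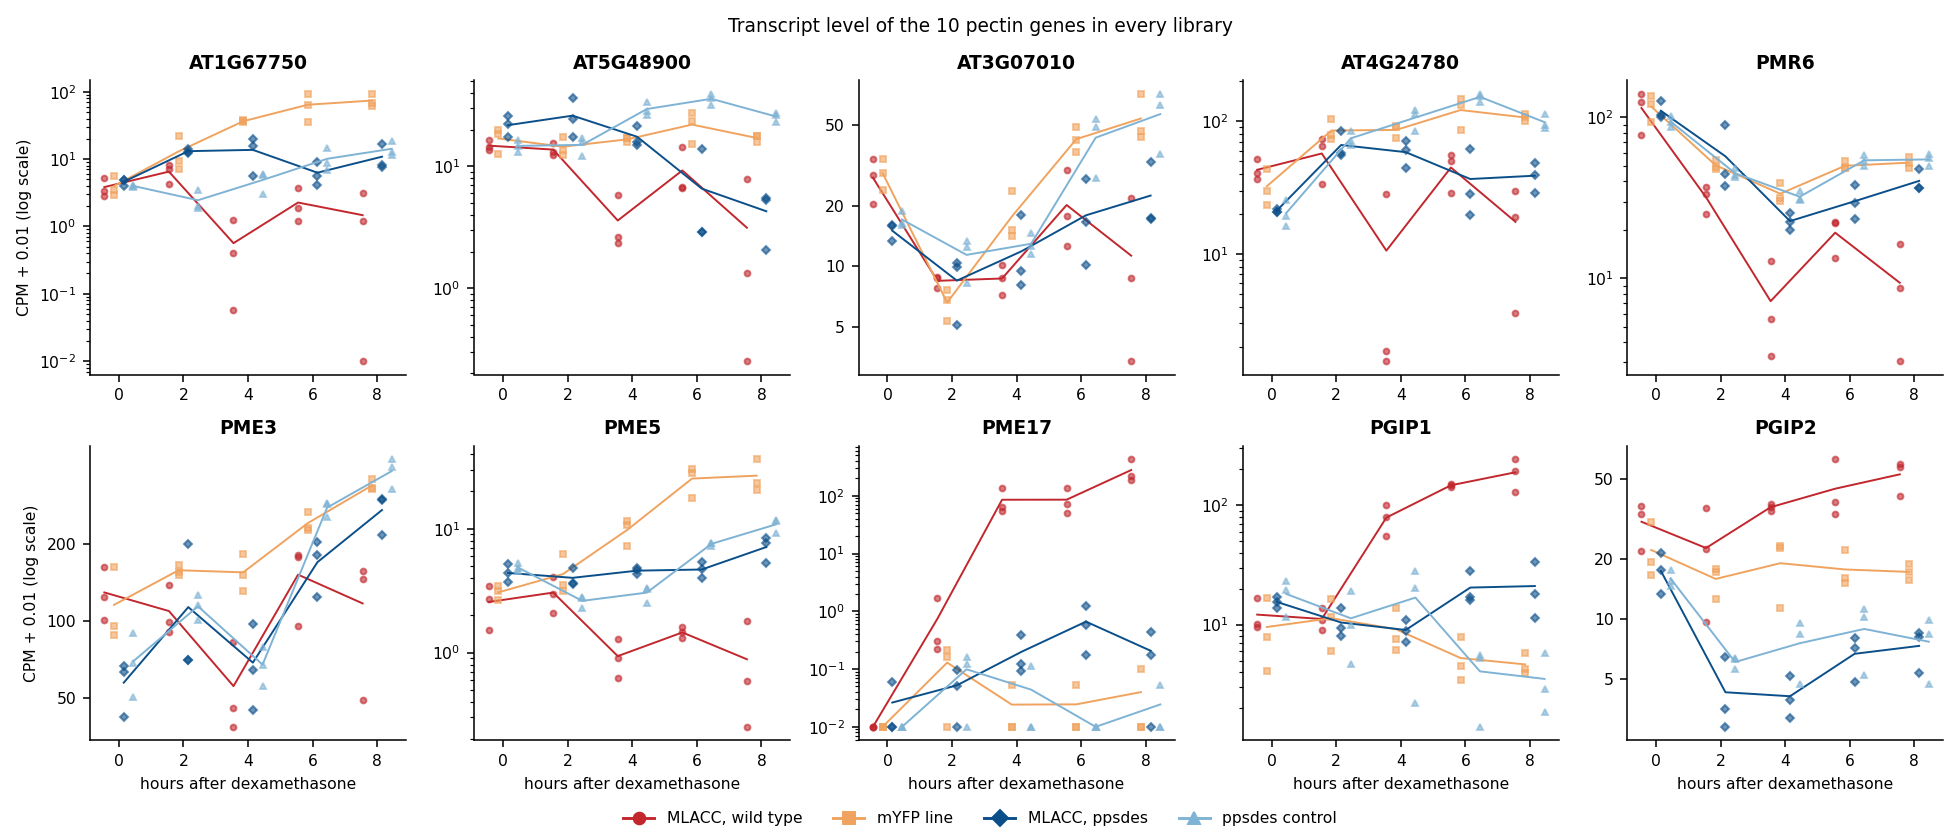
Level of each of the 10 genes in every library (points, CPM + 0.01 on a log axis) against hours after dexamethasone, with lines through the mean of 3 libraries per line and time. Red circles are wild type with MLACC, orange squares the mYFP line, dark blue diamonds ppsdes with MLACC and light blue triangles the ppsdes control. PME17 exceeds 1.23 CPM only in red, PGIP1 parts from its control in both backgrounds, and AT1G67750 and PME5 climb in the mYFP line while the red points stay low.

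The 3 methylesterase genes went different ways in wild type. PME17 (AT2G45220, chr2:18644061-18646606, minus strand, 2 exons), known to be induced by pathogens, was all but silent outside the wild-type MLACC line. At 0 h the 12 libraries of the 4 lines held 1 count in all. A count of 0 over the 3 libraries of wild type with MLACC allows up to 0.0490 CPM. At 4 h wild type with MLACC stood at 63.0, 54.4 and 138 CPM, against 0, 0 and 0.0427 CPM in the mYFP line. At 8 h it stood at 219, 426 and 190.5 CPM, against 0, 0.0897 and 0 CPM. The groups thus differed by orders of magnitude: the summed levels stood in a ratio of 5911 at 4 h (5273 counts with MLACC against 1, exact 95% interval for counting error 1061 to 2.335e+05), of 5735 at 6 h (6850 against 1, 1029 to 2.266e+05) and of 8653 at 8 h (18981 against 2, 2395 to 7.146e+04). At 2 h there were 42 counts with MLACC against 9 in the mYFP line, a ratio of 5.46 (2.62 to 12.8), of which replicate 1 held the most with 1.70 CPM, against 0.214 and 0.299 CPM in replicates 2 and 3.

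In ppsdes with MLACC PME17 never passed 1.23 CPM. At 6 h it stood at 0.558, 1.23 and 0.168 CPM, against 0 CPM in all 3 controls, which is at least 11.7-fold higher when 3 counts over the control group are taken as its limit, while the exact 95% interval for counting error (37 counts against 0) begins at 9.07. The gene was called higher by edgeR (adjusted p = 0.00333). No ppsdes control library held more than 3 counts at any time. The gene thus passed the filter on low counts only through libraries with MLACC. A call could then only be one of higher levels, and nothing is read from this p. The call was lost without any 1 of the 3 control libraries, without replicate 2 with MLACC, without the libraries nearest another time, and when the difference at 0 h was subtracted. At 4 h there were 15 counts with MLACC against 2 (ratio 6.39, 1.49 to 57.5, adjusted p = 0.298) and at 8 h 13 against 1 (ratio 11.9, 1.79 to 507, adjusted p = 0.11). The highest ppsdes library at 8 h, 0.427 CPM, stood far below the lowest wild-type library with MLACC, 190.5 CPM. The fitted difference of the MLACC effect between backgrounds was not called by edgeR at any time, but DESeq2 called it at 4 and 8 h (-9.86 and -9.67), with an edgeR SE of 1.99 to 83.0 where the controls are at or near 0 counts.

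PME5 (AT5G47500, chr5:19270944-19272892, minus strand, 5 exons) followed the pattern of AT1G67750. In wild type with MLACC it stood at 0.614, 1.28 and 0.889 CPM at 4 h, against 7.20, 10.7 and 11.5 CPM in the mYFP line, and at 0.582, 0.242 and 1.80 CPM at 8 h, against 23.5, 36.3 and 20.6 CPM. The log2FC was -3.36 ± 0.46 at 4 h, -4.11 ± 0.44 at 6 h and -4.94 ± 0.47 at 8 h, and these calls held under every alternative tried. As with AT1G67750, the mYFP line gained transcript over time, with means of 3.05, 4.29, 9.80, 25.4 and 26.8 CPM at 0, 2, 4, 6 and 8 h. In ppsdes at 8 h the levels were 8.38, 5.27 and 7.67 CPM with MLACC and 9.26, 11.6 and 11.7 CPM in the control. The groups did not overlap, but the log2FC of -0.64 ± 0.17 (adjusted p = 0.00463) was under the fold change threshold, as was that at 6 h (-0.67 ± 0.17, adjusted p = 0.00305). At 2 and 4 h its log2FC was 0.61 in ppsdes (adjusted p = 0.143 and 0.0333).

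PME3 (AT3G14310, chr3:4771833-4775258, minus strand, 3 exons), a broadly expressed methylesterase, had the highest mean level per length of the 10 genes at 8 h in each line but wild type with MLACC. It stood at 82.5, 45.9 and 38.7 CPM in wild type with MLACC at 4 h, against 131, 182 and 150.2 CPM in the mYFP line, and at 145, 49.3 and 156 CPM at 8 h, against 329, 327 and 356 CPM. The log2FC was -1.43 ± 0.34 and -1.53 ± 0.34. In ppsdes at 8 h the levels were 216, 295 and 299 CPM with MLACC and 325, 425 and 398 CPM in the control. Here too the groups were apart, while the log2FC of -0.53 ± 0.32 did not pass the test (adjusted p = 0.196).

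The PGIP genes are tandem copies 330 bases apart on chromosome 5, with coding sequences identical at 81.7% of aligned positions and no shared run of 36 bases. PGIP1 (AT5G06860, chr5:2132350-2133587, plus strand, 2 exons) stood at 55.6, 79.7 and 100.6 CPM in wild type with MLACC at 4 h, against 7.56, 6.07 and 13.8 CPM in the mYFP line. At 8 h it stood at 194, 242 and 129 CPM, against 5.74, 4.26 and 3.90 CPM. The lowest library with MLACC was thus well above the highest control, and the log2FC was 3.15 ± 0.46 at 4 h, 4.82 ± 0.49 at 6 h and 5.36 ± 0.51 at 8 h. These calls held under every alternative tried. In ppsdes the levels were 16.1, 27.9 and 17.2 CPM with MLACC at 6 h, against 1.38, 5.55 and 5.22 CPM in the control, and 33.7, 17.9 and 11.4 CPM at 8 h, against 1.86, 5.78 and 2.86 CPM. PGIP1 was higher than in the control by a log2FC of 2.35 ± 0.65 at 6 h (adjusted p = 0.00598) and of 2.57 ± 0.66 at 8 h (adjusted p = 0.00409). The groups did not overlap at either time. The call at 8 h was lost without replicate 1 or 3 of the control or replicate 1 with MLACC, and that at 6 h without any 1 of the controls or replicate 2 or 3 with MLACC. Both were lost when the difference at 0 h was subtracted (adjusted p = 0.0403 at 6 h and 0.0365 at 8 h). That at 6 h was also lost when only the 6 libraries were fitted and without the libraries nearest another time.

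PGIP1 fell in the ppsdes control itself. The control mean was 3.50 CPM at 8 h and 18.0 CPM at 0 h, a log2FC of -2.37 ± 0.66 (adjusted p = 0.00474), while ppsdes with MLACC had 21.0 CPM at 8 h and 15.5 CPM at 0 h. This call was lost without replicate 2 or 3 of the control at 0 h or replicate 1 or 3 at 8 h, and when only the 15 libraries of the line were fitted. At 4 h the control libraries were scattered, at 2.18, 27.98 and 20.3 CPM. The antisense gene AT5G06865 covers the whole of PGIP1 over 1238 bases. It stood at 0.383 to 9.15 CPM in all libraries, with a mean at 8 h of 4.12 CPM where wild type expressed MLACC and 1.92 CPM in the mYFP line, and was called higher there (log2FC 1.11). Without strand, its reads and those of PGIP1 cannot be told apart where they overlap.

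PGIP2 (AT5G06870, chr5:2133918-2135168, plus strand, 2 exons) differed less from its control than PGIP1 in wild type, and its ppsdes groups overlapped at every time. It stood at 59.7, 57.9 and 41.4 CPM in wild type with MLACC at 8 h, against 18.8, 15.6 and 17.1 CPM in the mYFP line. The log2FC was 0.99 ± 0.35 at 4 h, which missed both thresholds, 1.36 ± 0.35 at 6 h and 1.64 ± 0.36 at 8 h. The call at 6 h was lost without replicate 2 or 3 of the mYFP line or replicate 1 with MLACC. The calls at 6 and 8 h were both lost when the difference at 0 h was subtracted. In ppsdes the levels at 8 h were 8.06, 5.31 and 8.50 CPM with MLACC and 4.67, 9.88 and 8.40 CPM in the control (log2FC -0.09 ± 0.33, adjusted p = 0.844).

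The difference between the backgrounds was fitted directly, as the MLACC effect in ppsdes minus that in wild type, over all 60 libraries. Since it contains the wild-type comparison, it too is a description. At 2 h 0 of 10 genes were called by edgeR, against 0.206% of the 19929 tested (4 at an unadjusted p under 0.05, 1 called by DESeq2). At 4 h 5 were called against 20.7% (10.6% lower and 10.1% higher), at 6 h 2 against 4.13% (2.61% lower and 1.52% higher) and at 8 h 5 against 19.9% (8.61% lower and 11.3% higher). AT1G67750 and PME5 differed at all 3 times, by 7.505 ± 0.89 and 4.00 ± 0.48 at 4 h and by 5.27 ± 0.81 and 4.34 ± 0.47 at 8 h. PMR6 differed by 1.71 ± 0.48 at 4 h and 2.04 ± 0.47 at 8 h. A positive value here means that MLACC lowered the transcript less in ppsdes, or raised it more. PGIP1 (-4.005 ± 0.79 and -2.75 ± 0.80) and PGIP2 (-1.82 ± 0.50 and -1.69 ± 0.49) differed the other way at 4 and 8 h. At 4 h the log2FC of PGIP1 was -0.89 in ppsdes (adjusted p = 0.427) and 3.15 in wild type, and that of PGIP2 -0.87 (adjusted p = 0.114) and 0.99. The calls of PGIP1 and PGIP2 at 8 h were kept in 10 and 8 of 16 alternatives, and those of PMR6 and PGIP2 at 4 h in 12 of 16, each lost only where 1 library was left out. Over the 16 alternatives the values were -3.20 to -2.19 for PGIP1 and -1.95 to -1.44 for PGIP2 at 8 h, and 1.43 to 2.50 for PMR6 and -2.065 to -1.55 for PGIP2 at 4 h. AT5G48900, AT3G07010, AT4G24780 and PME3 were not called at any time by edgeR with all libraries. At 8 h their differences were -0.12 ± 0.72, 0.92 ± 0.55, 1.27 ± 0.76 and 1.03 ± 0.48. These missing calls depended on the setting. Without the 5 libraries nearest another time, AT5G48900, AT3G07010 and AT4G24780 were called at 8 h, at 1.87, 1.88 and 1.97, AT5G48900 at 4 and 6 h, at 2.07 and -2.46, and AT4G24780 at 4 h, at 4.88 in place of 2.15 ± 0.77. PME3 was called at 4 h under that setting (1.97), by DESeq2 (1.45), with the replicate number as a block (1.49), and without replicate 1 of wild type with MLACC (1.97) or replicate 2 of ppsdes with MLACC (1.73).

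Some of the 10 genes were also called with time in the controls, which received dexamethasone but carried no MLACC. PME17 and AT5G48900 were called in neither by edgeR with all libraries, although AT5G48900 was called in the ppsdes control at 6 h by DESeq2 (1.26) and with the replicate number as a block (1.30). In the mYFP line, whose libraries are those of the wild-type comparison and are therefore only described, 1 of 10 genes was called at 2 h against 0 h (10.6% of all genes), 3 at 4 h (13.1%), 2 at 6 h (19.9%) and 3 at 8 h (21.9%, with 10.3% lower and 11.7% higher). At 8 h these were AT1G67750 (log2FC 4.28 ± 0.70), PME3 (1.61 ± 0.34) and PME5 (3.20 ± 0.42), all higher than at 0 h. At 2 h AT3G07010 was the one called, at 5.34, 6.83 and 7.65 CPM against 28.9, 34.1 and 23.7 CPM at 0 h (-2.13 ± 0.42). By 8 h its mean of 53.9 CPM was above that at 0 h (28.9 CPM).

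In the ppsdes control, which shares its libraries with the ppsdes MLACC comparison, 3 genes were called at 2 h (12% of all genes), 2 at 4 h (13.9%), 5 at 6 h (18.9%, with 9.40% lower and 9.49% higher) and 6 at 8 h (20.8%, with 10.4% lower and 10.3% higher). AT4G24780 rose at every time, with 85.3, 66.8 and 71.5 CPM at 2 h, against 16.3, 19.4 and 25.4 CPM at 0 h (log2FC 1.91 ± 0.29, adjusted p = 3.63e-05), and a log2FC of 2.90 ± 0.30 at 6 h (adjusted p = 6.17e-08). PME3 rose to 325, 425 and 398 CPM at 8 h, against 50.7, 68.4 and 89.8 CPM at 0 h (2.47 ± 0.34, adjusted p = 2.47e-06). AT3G07010 (1.74 ± 0.37, adjusted p = 0.000414), AT1G67750 (1.85 ± 0.41, adjusted p = 0.000685) and PME5 (1.16 ± 0.17, adjusted p = 6.09e-06) also rose at 8 h. PMR6 fell early, to 43.7, 42.7 and 48.5 CPM at 2 h, against 103, 93.5 and 86.6 CPM at 0 h (-1.04 ± 0.21, adjusted p = 0.000656), and at 4 h by 1.53 ± 0.22 (adjusted p = 9.29e-06). PGIP2 fell at 2 h, to 5.55, 6.23 and 6.36 CPM against 17.6, 15.5 and 14.6 CPM (-1.37 ± 0.33, adjusted p = 0.00255). The calls of PMR6 and PGIP2 at 2 h were lost without replicate 1 at 0 h, and that of PGIP2 also without replicate 1 at 2 h. At 4 h it was at -1.06 ± 0.33 (adjusted p = 0.0131), and with the replicate number as a block at -1.11 (adjusted p = 0.00572). The calls at 6 h of AT1G67750, AT3G07010 and PGIP1 held under 4, 7 and 5 of 12 alternatives and were each lost without any 1 of 5 of the 6 libraries (all but replicate 2 at 6 h, replicate 1 at 6 h and replicate 1 at 0 h for these genes in turn), and 2 or 3 genes were called there when any 1 library was left out. The rises of AT1G67750 and PME5 at 8 h held under all 11 alternatives.

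At 0 h none of the 10 genes was called by edgeR when the ppsdes control was compared with mYFP plants, against 0.351% of all genes called (2 of 10 at an unadjusted p under 0.05, 0 called by DESeq2). The smallest adjusted p was 0.357, for PME3 at 50.7, 68.4 and 89.8 CPM in the ppsdes control and 95.8, 88.5 and 162 CPM in the mYFP line (log2FC -0.73 ± 0.34). PME5 and AT3G07010 did not overlap between the lines. AT3G07010 stood at 16.4, 16.0 and 18.7 CPM in the ppsdes control and 28.9, 34.1 and 23.7 CPM in the mYFP line (-0.76 ± 0.39, adjusted p = 0.426), and PME5 had a log2FC of 0.67 (adjusted p = 0.378). Background, transgene and table cannot be told apart in this comparison.

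Levels of different genes were compared per length, as reads per kb of exon and per M reads (RPKM, from the exon lengths of the annotation). At 0 h PMR6 (42.6 to 52.8 RPKM, the range of the means of the 4 lines) and PME3 (24.7 to 55.5) led, followed by PGIP2 (13.6 to 26.2), AT4G24780 (10.8 to 22.8), PGIP1 (8.16 to 15.4), AT5G48900 (8.95 to 13.2), AT3G07010 (4.35 to 8.39), PME5 (1.75 to 3.35) and AT1G67750 (2.12 to 2.55), with PME17 last at 0 to 0.00829 RPKM. Neighbours in this order overlapped in their ranges, except AT5G48900 and AT3G07010, AT3G07010 and PME5, and AT1G67750 and PME17. At 8 h in wild type with MLACC the order was turned, with PGIP1 at 161 ± 48.4 RPKM (SD, n = 3), PME17 at 142 ± 65.5, PME3 at 50.3 ± 25.3 and PGIP2 at 45.4 ± 8.61, and the 6 others at means of 0.600 to 9.24 RPKM. PGIP1 and PME17 did not differ beyond their spread, nor did PME3 and PGIP2. In the mYFP line PME3 led with 145 ± 6.89 RPKM, ahead of AT4G24780 with 56.6 ± 3.14 and AT1G67750 with 41.0 ± 9.59, and PGIP1 stood at 3.96 ± 0.834. In ppsdes at 8 h PME3 led in both lines, with 116 ± 20.1 RPKM with MLACC and 165 ± 22.3 in the control. PGIP1 was at 18.0 ± 9.80 RPKM with MLACC there, against 2.99 ± 1.74.

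**Figure D3:**
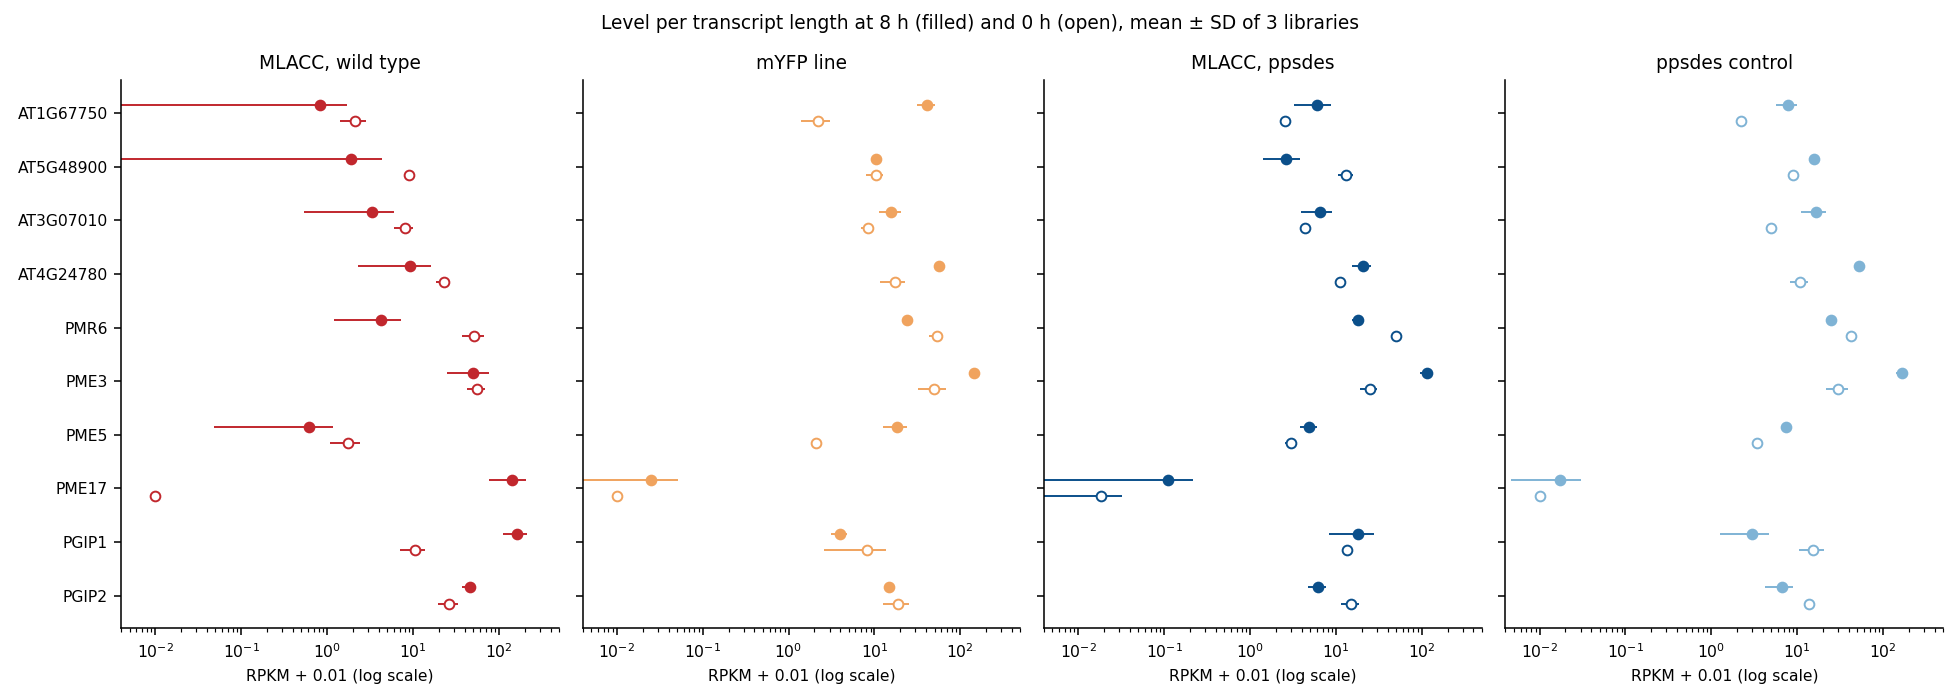
Level per exon length (RPKM + 0.01, log axis) of each gene in the 4 lines at 8 h (filled points) and 0 h (open points), as the mean ± SD of 3 libraries, with error bars that run past the left edge where the SD exceeds the mean. PGIP1 and PME17 head the wild-type MLACC panel at 8 h, at 161 and 142 RPKM, while PME3 heads the other panels at 8 h.

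Other genes of pectin metabolism were counted from lists set by family annotation or by hand. Over all genes tested at 8 h, 3.44% were called lower and 9.00% higher in ppsdes, and 22.6% lower and 23.1% higher in wild type. Some genes tested had 0 counts in the control at 8 h and could be called only higher. How many of each list, or of all genes, passed the filter only through MLACC libraries was not counted. The counts of higher genes below are therefore only described. In wild type with MLACC at 8 h 14 of the 27 polygalacturonase genes tested, of 70 listed, were lower and 4 higher (median log2FC -1.20), and in ppsdes 5 of 24 were lower and 0 higher (-0.44). AT1G10640 and AT1G60590 had the largest lower values in wild type (-3.87 ± 0.73 and -3.59 ± 0.90) and also fell in ppsdes (-2.56 ± 0.65, adjusted p = 0.0036, and -2.26 ± 0.60, adjusted p = 0.00482). AT1G60590 stood at 6.40, 3.42 and 11.1 CPM in ppsdes with MLACC, against 32.0, 34.8 and 31.7 CPM. The largest higher values were those of QRT2, known from pollen separation, at 2.40, 4.01 and 1.43 CPM, and of AT5G14650, at 0.837, 3.28 and 2.30 CPM. Both had 0 counts in the mYFP line at 8 h.

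Of the other pectate lyase genes 3 of 7 tested were lower and 0 higher in wild type at 8 h (median log2FC -1.25), and 1 of 6 was lower in ppsdes. AT3G09540 was called in both (-1.83 ± 0.29 in wild type and -1.32 ± 0.29 in ppsdes, adjusted p = 0.00138). Its means at 0 and 8 h were 5.96 and 9.72 CPM in wild type with MLACC, against 5.84 and 34.6 CPM. In ppsdes they were 7.03 and 20.4 CPM with MLACC, against 5.40 and 49.8 CPM. AT4G13710 had -2.54 ± 0.35 in wild type and -1.12 ± 0.35 in ppsdes (adjusted p = 0.0139). Of the other methylesterases 9 of 22 were higher and 4 lower in wild type (median 0.07), beside 23.1% and 22.6% of all genes, and 5 of 21 were higher and 0 lower in ppsdes (-0.13), beside 9.00% and 3.44%. Those with the largest higher values were low in level: AT2G47550 stood at 2.18, 4.35 and 1.61 CPM and ATPMEPCRD at 0.364, 0.386 and 0.276 CPM in wild type with MLACC. Both had 0 counts in the mYFP line at 8 h, where replicate 1 at 0 h held 0.0598 and 0.179 CPM of them. PME44 and PME61 had the largest lower values (-2.25 ± 0.59 and -2.03 ± 0.36) and were at -0.13 ± 0.37 and -0.04 ± 0.33 in ppsdes (adjusted p = 0.803 and 0.939). The PME61 mean was 1.72 CPM at 0 h and 3.89 CPM at 8 h in wild type with MLACC, against 2.02 and 16.0 CPM in the mYFP line. Of the inhibitors of methylesterase or invertase 5 of 21 were higher and 7 lower in wild type (median -0.89), and 0 of 19 higher and 1 lower in ppsdes (-0.24). Among them AT5G46960 stood at 7.82, 12.6 and 4.19 CPM and AT3G17150 at 0.764, 1.5 and 0.737 CPM in wild type with MLACC, with 0 counts in the mYFP line at 8 h. AT1G23205 (-3.07 ± 0.85) and AT1G62770 (-2.88 ± 0.68) were lower.

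Among genes of pectin synthesis 3 of 11 were higher and 1 lower in wild type at 8 h, with a median log2FC of -0.32, beside 23.1% and 22.6% of all genes, and 0 of 11 were called in ppsdes by edgeR (-0.02, 1 at an unadjusted p under 0.05). RHM1, for UDP-rhamnose synthesis, stood at 303, 389 and 279 CPM in wild type with MLACC, against 68.4, 53.7 and 52.6 CPM in the mYFP line, and at 77.9, 60.6 and 53.0 CPM in ppsdes with MLACC, against 121, 35.6 and 39.5 CPM in the control (log2FC 2.49 ± 0.26 and -0.07 ± 0.49, the second with adjusted p = 0.921). At 0 h the RHM1 means were 206 CPM in wild type with MLACC and 288.5 CPM in the mYFP line. In ppsdes they were 197 CPM with MLACC and 212 CPM in the control. The mYFP line was thus far lower at 8 h (mean 58.2 CPM) than at 0 h, and this enters the log2FC. UGD3, which makes UDP-glucuronic acid, was at 2.16 ± 0.29 in wild type, and GAUT7, of the homogalacturonan synthase complex, at -1.09 ± 0.12. The pectin acetylesterase gene PAE8 was called higher in both backgrounds, at 127, 138 and 111 CPM in wild type with MLACC, against 23.4, 28.7 and 19.0 CPM, and at 172.5, 201 and 132 CPM in ppsdes with MLACC, against 8.52, 7.70 and 6.43 CPM (2.41 ± 0.30, and a rise of 4.45 ± 0.44 with adjusted p = 2.57e-07). PAE9 (-2.20 ± 0.64) and PMR5 (-1.30 ± 0.31), a gene of wall acetylation whose loss gives mildew resistance, were lower than in the mYFP line. In ppsdes they had -0.81 ± 0.37 and -0.42 ± 0.20 (adjusted p = 0.0889 and 0.0984). The PMR5 mean was 2.755 CPM at 0 h and 5.28 CPM at 8 h in wild type with MLACC, against 2.80 and 13.1 CPM in the mYFP line.

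Of 3 genes for sensing the wall 2 were called higher in each background at 8 h, and of 2 oligogalacturonide oxidase genes 1 was. The wall-associated kinase gene WAK1, whose product binds pectin and oligogalacturonides, stood at 295, 257 and 153 CPM in ppsdes with MLACC at 8 h, against 3.24, 27.2 and 1.83 CPM in the control (4.44 ± 0.92, adjusted p = 0.000733), and at 1209, 1003 and 733 CPM in wild type with MLACC, against 295, 70.6 and 45.8 CPM in the mYFP line (2.85 ± 0.60). WAK2 rose by 1.56 ± 0.29 in ppsdes (adjusted p = 0.000267) and was at 1.18 ± 0.30 in wild type. OGOX1, for an enzyme that oxidises oligogalacturonides, stood at 858, 1532 and 881 CPM in wild type with MLACC, against 82.1, 53.9 and 44.6 CPM (4.20 ± 0.51). In ppsdes it stood at 324, 362 and 257 CPM with MLACC, against 28.9, 51.4 and 23.3 CPM, a rise of 3.16 ± 0.51 (adjusted p = 7.3e-05). Its neighbour OGOX2 was lower in wild type (-2.02 ± 0.35) and at -0.67 ± 0.20 in ppsdes (adjusted p = 0.0122).

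**Figure D4:**
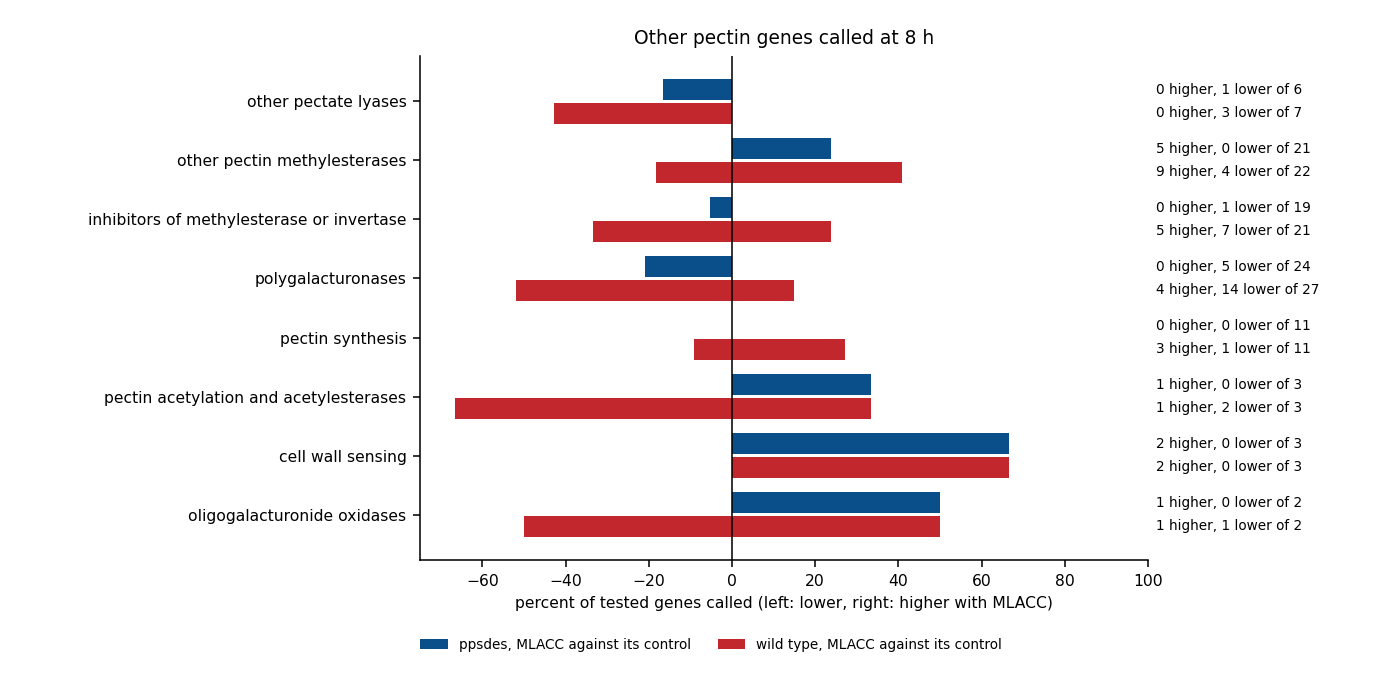
Percent of tested genes of each pectin list that were called at 8 h with MLACC against its control, to the right where higher and to the left where lower, in ppsdes (upper bar, blue) and wild type (lower bar, red), with the counts at the right. Polygalacturonases lie mainly to the left, with 14 of 27 lower in wild type and 5 of 24 in ppsdes, and the other methylesterases mainly to the right, with 9 of 22 and 5 of 21 higher.

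Across the 20 groups the mean log2 levels of AT1G67750 and PME5 ran together (Pearson r = 0.936), as did those of PME17 and PGIP1 (r = 0.905), while PGIP1 and AT5G48900 ran against each other (r = -0.800). Among the 19004 genes tested in both tables, those most like AT1G67750 were GSTU26, a glutathione S-transferase gene (0.964), ERL2, a receptor kinase gene of the ERECTA family (0.951), and PME5. Those most like PME17 were SUC7, a sucrose transporter gene (0.995), CYP710A1, a sterol desaturase gene (0.995), and AOX1D, for an alternative oxidase (0.994). Those most like PGIP1 were AT2G37750 (0.966), ATR1, for a P450 reductase (0.965), and AT3G12760 (0.959). The groups share libraries, lines and time points, so these values describe likeness of pattern only.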

How the data were processed

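RNA was sequenced as unstranded poly(A) libraries. Per the study's methods reads were checked with FastQC 0.11.2 and aligned to TAIR10 with TopHat2 2.0.10, and the authors counted reads per gene with HTSeq, whose version is not given in the sources used here. Raw counts were deposited, in 1 table per background. Summary rows that name no gene were left out: reads in no feature (1.325% to 2.256% of all in wild type, 1.235% to 1.896% in ppsdes), ambiguous reads (0.3855% to 0.6705%, 0.362% to 0.6403%) and reads not aligned uniquely (6.464% to 14.19%, 6.658% to 9.839%).

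Counts were tested with edgeR 4.0.16 (quasi-likelihood F test, TMM scaling, filterByExpr, Benjamini-Hochberg adjustment) under R 4.3.3, with 30 libraries per background and all 60 for differences between backgrounds. DESeq2 1.42.0 was an alternative, and the fits were tested on simulated data. CPM used 1 TMM scaling over all 60 libraries. Of each other pectin list up to 2 called genes with the largest rise and up to 2 with the largest fall at 8 h in wild type were named, and for likeness the 3 genes with the highest r. The members and lists were chosen with earlier results of these data known. Each library pooled leaf discs of 6 plants. Whether replicates came from separate plants is not given in the sources used here, so p-values measure only the spread between these samples, which may be technical. Intervals of counts cover counting error only.

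Replicate numbers are shared between groups. In 4 of 18 comparisons every same-numbered pair deviated together (r over 0.1), namely wild type at 0 h, the ppsdes control at 4 h against 0 h, and ppsdes with MLACC against its control at 6 and 8 h. Of the members' calls in these, the block changed that of PGIP2 in the ppsdes control at 4 h.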

Additional observations from a re-analysis of the deposited data

Results flagged for a closer look

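For 12 values the MLACC effect differed between ppsdes and wild type by the interaction term of the edgeR fit. At 4 h these were AT1G67750 (7.505), PMR6 (1.715), PME5 (4.003), PGIP1 (-4.005) and PGIP2 (-1.82), as the log2FC in ppsdes minus that in wild type. At 6 h they were AT1G67750 (4.143) and PME5 (3.437). At 8 h they were AT1G67750 (5.266), PMR6 (2.037), PME5 (4.336), PGIP1 (-2.748) and PGIP2 (-1.693). The genes were chosen with the wild-type response known, so these values are a description.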

How the results depend on the processing

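Of 71 called values 36 kept their call under all alternatives and 35 lost it under some, and 55 times a value not called with all libraries was called under an alternative. The number of the 10 genes called moved as follows. With only the 6 libraries compared it was 0 in ppsdes at 2 h, 5 in wild type at 4 h, 0 in ppsdes at 6 h and 6 in wild type at 8 h, while AT5G48900, AT3G07010 and AT4G24780 gained a call in wild type at 6 h (-1.23, -1.06 and -1.42). PME17 was not tested in these ppsdes fits. After subtraction of the 0 h difference it was 0 in ppsdes at 2 h, 3 in wild type and 2 in ppsdes at 6 h, and 6 in wild type and 1 in ppsdes at 8 h. DESeq2 called 1 for the difference between backgrounds at 2 h, 2 and 4 in the mYFP line at 2 and 6 h, and 1 in ppsdes at 4 h. With only the 15 libraries of the line, where PME17 was not tested, 4, 5 and 5 were called in the mYFP line at 2, 6 and 8 h. Without the 5 libraries nearest another time, an alternative chosen after seeing the data, 2 were called in the mYFP line at 2 h and 8 each for the difference between backgrounds at 4 and 8 h, and AT5G48900 reversed to 1.872 in that difference at 8 h (-0.12 with all libraries). The cause was not tested.

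Leaving out 1 library at a time gave 0 to 1 calls in ppsdes at 2 h, 0 to 1 at 4 h, 2 to 6 at 6 h and 2 to 4 at 8 h, and 7 to 8, 4 to 5 and 9 to 10 in wild type at 4, 6 and 8 h. The difference between backgrounds gave 3 to 7, 2 to 3 and 3 to 6 at 4, 6 and 8 h, the mYFP line 1 to 3 and 2 to 3 at 4 and 6 h, and the ppsdes control 1 to 3, 2 to 3 and 5 to 7 at 2, 6 and 8 h. Leaving out each library for the difference at 2 h was not run. With the replicate number as a block, 1 gene, AT1G67750, was called in ppsdes at 4 h (log2FC 1.44, adjusted p = 0.00337). The block lost no call and gained 7 others: PGIP2 in wild type at 4 h (1.06), PME3 at 4 h (1.49) and PGIP2 at 6 h (-1.70) for the difference between backgrounds, PME3 in the mYFP line at 6 h (1.11), and in the ppsdes control AT5G48900 at 6 h (1.30) and PGIP2 at 4 and 8 h (-1.11 and -1.10). Same-numbered deviations correlated at -0.259 to 0.603, and 33 of 54 libraries correlated best with their own number.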
